A study of Homo sapiens with 6 samples.

Results

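A set of 10 genes of the pericellular serine protease system was followed in SKBR3 cells: 8 membrane-associated or secreted epithelial proteases (TMPRSS2, TMPRSS3, TMPRSS4, TMPRSS13, ST14, PRSS8, PRSS22 and PRSS27) and 2 Kunitz-type inhibitors of them (SPINT1 and SPINT2). They were chosen by their function and by their values in the contrast described below, and were found by matching their symbols to the Ensembl identifiers of the count tables, and all 10 were among the 60612 identifiers listed and the 17854 tested. SKBR3 is an established HER2-positive mammary epithelial cancer line. In all, 3 libraries came from the untreated line, called parental here, and 3 from SKBR3 cells labelled as treated with trastuzumab, an antibody against HER2, whose concentration was raised over 30 weeks. These last libraries, titled SKBR3_HR, are called trastuzumab here, and the labels do not say whether the antibody was present at harvest. The labels do not say either that replicates came from separate cultures or clones, so tests measure only the spread between these libraries, which may be technical.

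Trypsin-like serine proteases of the epithelial surface are made as inactive precursors and are switched on by cleavage, often by one another. Matriptase (ST14) and prostasin (PRSS8) form the best-known pair in epithelia, where they help to form the barrier and cleave growth factor precursors, sodium channel subunits and protease-activated receptors. The transmembrane Kunitz inhibitors HAI-1 (SPINT1) and HAI-2 (SPINT2) bind these enzymes, restrain them and help to bring matriptase to the cell surface. In breast and other carcinomas the balance between such proteases and their inhibitors has been studied for its links to invasion and to the activation of hepatocyte growth factor.

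The 8 proteases share the coding sequence around the serine of the active site, which is shown because it marks them as one enzyme family and its serine codon differs between them. In the longest complete coding sequence of each gene (GENCODE 29, GRCh38), 45 bases are given 5′ to 3′ with the 15 bases that encode the active-site serine motif in capitals. The serine codon is the third codon in capitals.
TMPRSS2: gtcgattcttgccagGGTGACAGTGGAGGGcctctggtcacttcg
TMPRSS3: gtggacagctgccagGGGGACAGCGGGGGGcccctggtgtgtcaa
TMPRSS4: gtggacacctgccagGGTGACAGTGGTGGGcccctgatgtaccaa
TMPRSS13: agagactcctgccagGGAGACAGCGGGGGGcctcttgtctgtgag
ST14: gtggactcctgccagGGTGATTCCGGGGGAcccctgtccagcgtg
PRSS8: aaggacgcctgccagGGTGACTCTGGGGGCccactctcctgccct
PRSS22: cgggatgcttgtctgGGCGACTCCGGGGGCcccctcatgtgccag
PRSS27: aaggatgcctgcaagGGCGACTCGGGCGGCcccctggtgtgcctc
The motif was found in frame in 116 of 19515 protein-coding genes searched (0.594%), once in each of the 8 proteases and in neither SPINT1 nor SPINT2. TMPRSS2, TMPRSS3, TMPRSS4 and TMPRSS13 carry an AGT or AGC serine codon, while ST14, PRSS8, PRSS22 and PRSS27 carry a codon that begins with TC. Among all 116 genes, 36 had AGT or AGC and 80 a codon that begins with TC. TMPRSS3 and TMPRSS4 were the most alike pair, with 38 of 45 bases identical, and TMPRSS2 and PRSS22 the least alike, with 24. Over the whole stretch, pairs with unlike kinds of serine codon shared 24 to 30 bases and pairs with like kinds 28 to 38. The only pairs of like kind below 30 were those of ST14 with PRSS27 and with PRSS22. ST14 shared 33 bases with PRSS8, 30 with each of TMPRSS3, TMPRSS4 and TMPRSS13, 29 with PRSS27 and with TMPRSS2, and 28 with PRSS22. Each of the 8 stretches crosses an exon junction, so the genomic span is longer than the coding stretch. The spans are chr21:41467857-41468410 for TMPRSS2, chr21:42375839-42376555 for TMPRSS3, chr11:118115266-118117334 for TMPRSS4 and chr11:117903778-117903973 for TMPRSS13. Those of the genes whose serine codon begins with TC are chr11:130209564-130209691 for ST14, chr16:31132306-31132443 for PRSS8, chr16:2853300-2853879 for PRSS22 and chr16:2712785-2713543 for PRSS27. The stretches of TMPRSS4 and ST14 read along the plus strand and the other 6 along the minus strand.

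Several of the genes lie near each other. TMPRSS13 (ENSG00000137747) and TMPRSS4 (ENSG00000137648) are 147.6 kb apart on chromosome 11, where ST14 (ENSG00000149418) lies much farther along the same arm. PRSS27 (ENSG00000172382) and PRSS22 (ENSG00000005001) are 132.2 kb apart on chromosome 16, which also holds PRSS8 (ENSG00000052344). TMPRSS2 (ENSG00000184012) and TMPRSS3 (ENSG00000160183) are 840.7 kb apart on chromosome 21. SPINT1 (ENSG00000166145) is on chromosome 15 and SPINT2 (ENSG00000167642) on chromosome 19. In GRCh38 the proteases span chr21:41464551-41531116 (TMPRSS2), chr21:42371837-42396846 (TMPRSS3), chr11:118077012-118121890 (TMPRSS4), chr11:117900643-117929459 (TMPRSS13), chr11:130159562-130210376 (ST14), chr16:31131433-31135762 (PRSS8), chr16:2852727-2858170 (PRSS22) and chr16:2712418-2720551 (PRSS27). The inhibitors span chr15:40844018-40858207 (SPINT1) and chr19:38244035-38292614 (SPINT2).

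The libraries held 71015138 to 82857810 counts. Levels are given in CPM, counts scaled to a common library total with TMM factors, and a count of 0 would allow at most 0.0372 to 0.0428 CPM (3 counts, counting error only). Of the 10 luminal and apocrine epithelial markers, 9 reached 10 CPM, with a summed level of 20200 to 22000 CPM in the parental group and 23500 to 25300 CPM in trastuzumab libraries. The exception was TFAP2B. ERBB2, the gene of HER2, was the most abundant of these markers and went from a mean of 7920 to 11000 CPM. KRT7, KRT19, SPDEF and GATA3 also had higher means in the trastuzumab group. KRT8 (5520 and 4910 CPM), KRT18, EPCAM, FOXA1 and TFAP2B had lower ones. Summed markers of basal cells (5 genes) reached 6.57 to 7.72 CPM in the parental group and 5.08 to 22.9 CPM in trastuzumab libraries. Of these, KRT5 (0.997 and 5.98 CPM), KRT14 (0.11 and 5.1) and ACTA2 (0.391 and 1.79) had higher means in the trastuzumab group. TP63 (1.19 and 0.442 CPM) and MYLK (4.47 and 3.32) had lower ones. Summed markers of fibroblasts (6 genes) reached 9.19 to 19.2 and 6.06 to 10.9 CPM. Leukocyte markers (5 genes) summed to 14.4 to 17.2 and 42.7 to 49.0 CPM, almost all of it CD68, with PTPRC at 0.181 and 0.132 CPM. Endothelial markers (4 genes) summed to 28.5 to 31.7 and 78.9 to 86.0 CPM, almost all of it CDH5, with PECAM1 at 0.0678 and 0.176 CPM. The part of these shifts in the results below was not tested.

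All 10 genes had higher levels in the trastuzumab libraries than in the parental ones, with SPINT1 turning to lower once the trends on base composition and length were removed (below), and for all 10 the lowest trastuzumab library lay above the highest parental library in CPM. The rises ran from 1.21-fold for SPINT1 to 3.46-fold for TMPRSS3, with a median log2 fold change of 0.48 against -0.01 over all genes tested. All 10 passed the test of trastuzumab minus parental (edgeR quasi-likelihood, adjusted p below 0.05 over all genes), and 0 passed it as lower. Among all 17854 genes tested, 49.3% were called, 23.9% higher and 25.4% lower, and the groups stood apart with trastuzumab higher for 28.3%. Because the 10 genes were chosen with this contrast in view, these counts describe them and carry no p-value. Within the RNA of whole cultures, more cells that express a gene and more RNA per cell cannot be told apart.

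**Figure D1:**
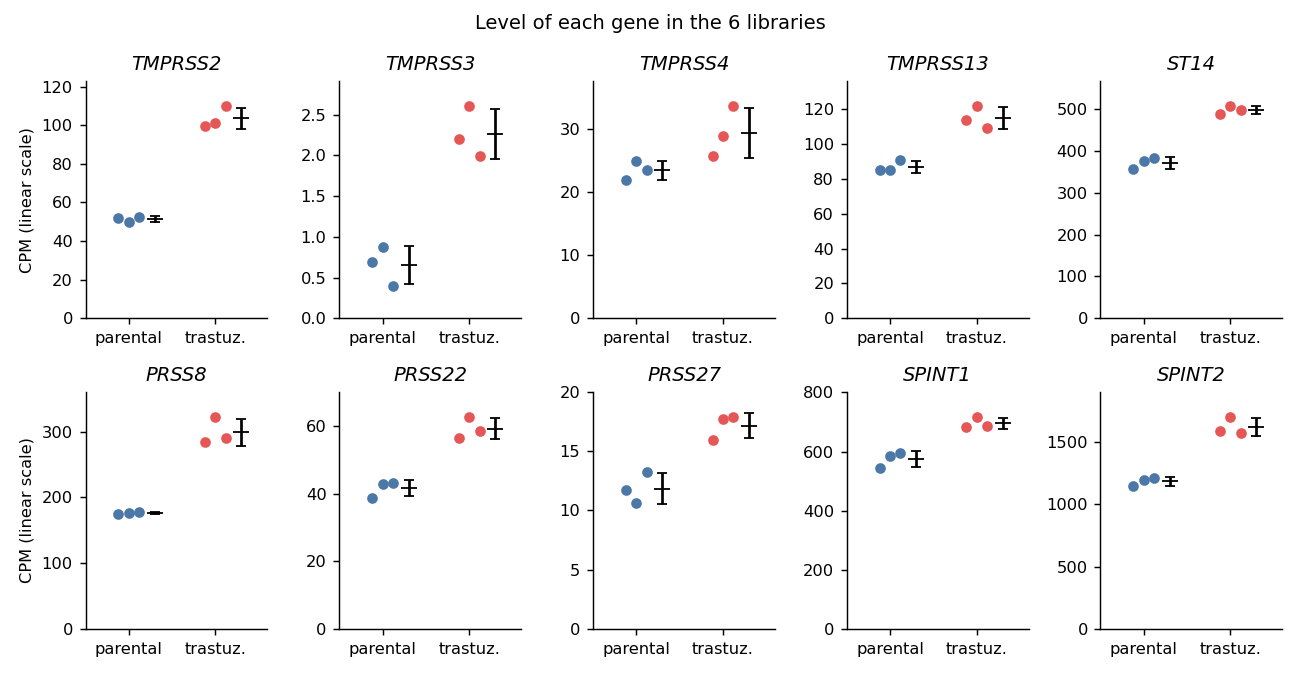
Level of each gene in CPM (linear vertical axes from 0, one scale per gene) in the 3 parental and 3 trastuzumab libraries. Points are libraries and the black bars beside them the mean ± SD (n = 3). For each of the 10 genes the 3 trastuzumab points lie above the 3 parental points in these CPM values, before any correction that turns SPINT1, with the narrowest gap in TMPRSS4 (24.98 against 25.73 CPM).

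TMPRSS2, an androgen-responsive protease that also cleaves the surface proteins of several respiratory viruses, rose 2.01-fold. Its levels were 51.8, 50.01 and 52.6 CPM in the parental libraries and 99.6, 101.4 and 109.8 CPM in the trastuzumab libraries. The groups were far apart compared with their spread, 51.5 ± 1.32 and 103.6 ± 5.47 CPM (SD, n = 3), and the log2 fold change was 1.01 ± 0.054 (SE).

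TMPRSS3, best known as a gene of the inner ear in which mutations cause deafness, had the highest fold change and the lowest level. It stood at 0.690, 0.869 and 0.399 CPM in the parental libraries, from 51, 64 and 29 counts, and at 2.20, 2.601 and 1.99 CPM in the trastuzumab libraries. The log2 fold change was 1.79 ± 0.32 (SE), the largest error of the 10. Parental replicate 3 was the lowest of the 6 libraries for this gene, and leaving it out gave 1.54.

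TMPRSS4, which is raised in several carcinomas, changed least clearly. It stood at 22.0, 25.0 and 23.6 CPM in the parental and 25.7, 28.95 and 33.6 CPM in the trastuzumab libraries. The highest parental and the lowest trastuzumab library were close, and trastuzumab replicate 3 was the highest of its group. The log2 fold change was 0.33 ± 0.094 (SE), and without trastuzumab replicate 3 it was 0.22 and no longer past the test. In the deposited FPKM values the groups overlapped, with 2.27 in parental replicate 2 and 2.22 in trastuzumab replicate 1, so that 9 of the 10 genes stood apart on that scale, where 24.2% of tested genes did so with trastuzumab higher.

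TMPRSS13, a relative expressed in stratified epithelia, stood at 84.9, 85.2 and 90.9 CPM in the parental and 114.0, 121.7 and 109.6 CPM in the trastuzumab libraries. This was a 1.32-fold rise (log2 0.40 ± 0.054 SE), with no overlap between groups.

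ST14, the gene of matriptase, was the most abundant of the 8 proteases. It stood at 356.5, 374.7 and 382.4 CPM in the parental and 487.2, 506.3 and 496.8 CPM in the trastuzumab libraries. The trastuzumab libraries had a coefficient of variation of 1.93%, and the rise was 1.34-fold (log2 0.42 ± 0.043 SE).

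PRSS8, the gene of prostasin, rose more than its partner. Its parental levels of 174.2, 176.8 and 178.3 CPM were the tightest of the 10 genes (coefficient of variation 1.18%), and its trastuzumab levels were 284.2, 322.0 and 290.9 CPM. Every trastuzumab library lay far above every parental one, and the rise was 1.70-fold (log2 0.76 ± 0.050 SE).

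The tryptase-like genes PRSS22 and PRSS27, neighbours on chromosome 16, rose by similar factors from different levels. PRSS22, an airway-rich protease able to activate the urokinase precursor, stood at 38.9, 43.0 and 43.1 CPM in the parental and 56.5, 62.7 and 58.7 CPM in the trastuzumab libraries. PRSS27, also called marapsin, stood at 11.7, 10.6 and 13.2 CPM and at 15.9, 17.7 and 17.9 CPM. Neither gene's groups overlapped, and the log2 fold changes were 0.51 ± 0.067 and 0.54 ± 0.11 (SE).

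The inhibitors were the most abundant of the 10 genes and rose too, SPINT1 only without the correction described below. SPINT1 stood at 543.9, 583.8 and 596.3 CPM in the parental and 681.4, 716.2 and 687.0 CPM in the trastuzumab libraries, a log2 fold change of 0.27 ± 0.045 (SE) and the smallest of the 10. SPINT2 stood at 1146, 1193 and 1213 CPM and at 1585, 1698 and 1574 CPM, a log2 fold change of 0.45 ± 0.042 (SE). Both inhibitors kept all trastuzumab libraries above all parental ones. An antisense gene on the opposite strand of SPINT1, SPINT1-AS1, had 8.27 CPM in the parental and 14.3 CPM in the trastuzumab group, and a gene without a symbol that overlaps SPINT2 on its own strand had 1.198 and 2.24 CPM, with PPP1R14A on its opposite strand at 0.0634 and 0.334 CPM. Genes that overlap PRSS22, PRSS8 and TMPRSS4 had under 1 CPM in each group. The libraries were made with a directional kit, but how the counting treated strand is not known here. Whether reads of an antisense partner were counted with a gene therefore cannot be told.

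The fold changes of all genes in these libraries followed base composition, and the 10 genes are rich in G and C. Over the 11665 protein-coding genes that averaged 1 CPM or more, each 10 percentage points of transcript GC content added 0.36 to the log2 fold change, with a Spearman rho of 0.625 across genes, which are not independent replicates. Transcripts of the 10 genes held 45.7% GC (TMPRSS4) to 63.8% GC (PRSS22), and 9 of them lay above the median of all tested genes, 49.0%. In 5 GC bins of equal size, the median log2 fold change went from -0.49 in the lowest to 0.36 in the highest bin. ST14, PRSS8, PRSS22, PRSS27 and SPINT1 belong to the highest bin, and 4 of these 5 lay above its median. SPINT1, at 0.27, lay below it. TMPRSS2, TMPRSS13 and SPINT2 exceeded the median of their own bin (0.23), TMPRSS3 that of its bin (-0.02) and TMPRSS4 that of its bin (-0.32).

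**Figure D2:**
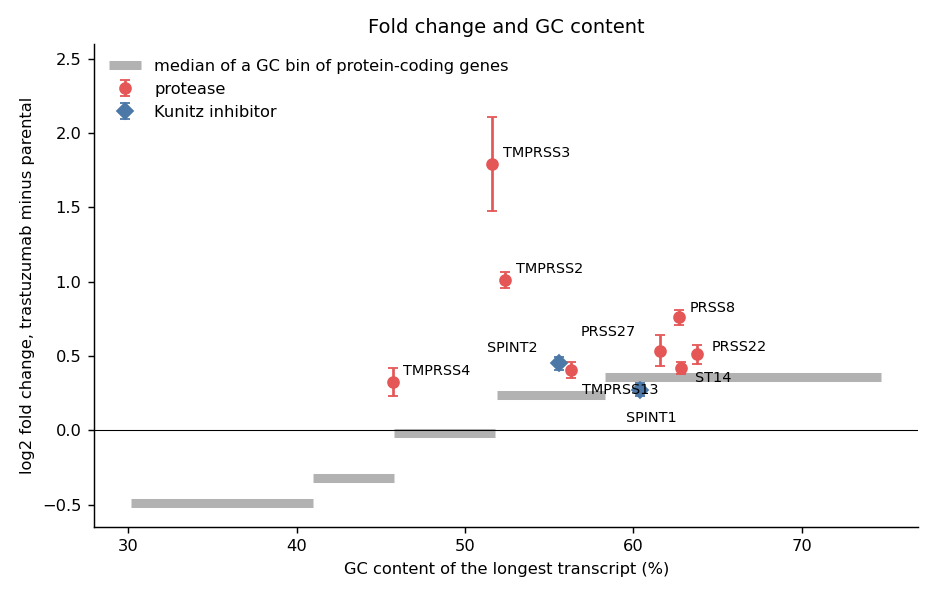
Log2 fold change of trastuzumab minus parental (vertical axis, bars ± SE) against transcript GC content in percent (horizontal axis) for the 8 proteases and 2 inhibitors. Grey bars give the median of 5 equal GC bins of protein-coding genes, from -0.49 to 0.36, and SPINT1 is the only one of the 10 genes below the bar of its bin.

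With the trends on GC content and exonic length removed from each library, the genes separated. TMPRSS2 (log2 fold change 0.90 ± 0.046 SE), TMPRSS3 (1.69 ± 0.32) and PRSS8 (0.37 ± 0.037) were still called higher. TMPRSS4, the gene with the lowest GC content, moved up from 0.33 to 0.63 ± 0.091. TMPRSS13 (0.16 ± 0.042), PRSS27 (0.25 ± 0.095) and SPINT2 (0.21 ± 0.029) were called higher with smaller values. ST14 (0.073 ± 0.029) and PRSS22 (0.094 ± 0.051) did not pass, and SPINT1 turned to -0.085 ± 0.028 and was called lower. In this corrected fit 7 of the 10 genes were called higher and 1 lower, beside 39.0% of all 17649 genes fitted, 19.7% higher and 19.3% lower. Where real changes go with GC content or length, this correction removes them as well, and the 2 cannot be told apart here.

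**Figure D3:**
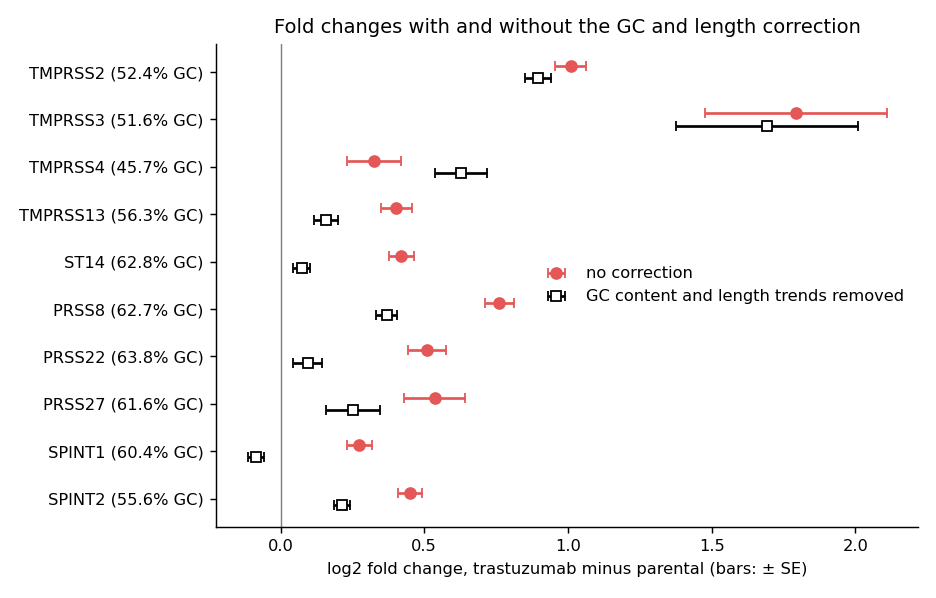
Log2 fold change of trastuzumab minus parental (horizontal axis, bars ± SE) for each gene, without (red circles) and with (open squares) removal of the GC and length trends. TMPRSS2 and TMPRSS3 hardly move (1.01 to 0.90 and 1.79 to 1.69), ST14 goes from 0.42 to 0.073 and SPINT1 from 0.27 to -0.085.

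Levels of different genes were compared in the deposited FPKM values, which are per gene length. In the parental libraries the order was SPINT2 (209.9 FPKM), SPINT1 (146.2), ST14 (81.3), PRSS8 (53.4), PRSS22 (15.7), TMPRSS13 (14.6), TMPRSS2 (9.62), TMPRSS4 (2.12), PRSS27 (1.79) and TMPRSS3 (0.117). Libraries of neighbouring genes in that order overlapped only for PRSS22 and TMPRSS13. In the trastuzumab libraries the order was the same except that TMPRSS2, at 18.5 FPKM, stood level with TMPRSS13, at 18.4 FPKM, and the libraries of these genes overlapped, as did those of TMPRSS4 (2.53) and PRSS27 (2.49). Matriptase and prostasin transcripts together made up 74.6 to 75.5% of the summed FPKM of the 8 proteases in every library of both groups. The repertoire was one of 2 abundant proteases and 2 still more abundant inhibitors, with 6 minor proteases.

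Without the correction for GC content and length, the summed proteases gained more, relative to their starting level, than the summed inhibitors. The summed FPKM of the 8 proteases went from 179 ± 3.66 to 254 ± 9.28 (SD, n = 3) and that of the 2 inhibitors from 356 ± 10.5 to 442 ± 15.5. Their ratio was 0.507, 0.499 and 0.5 in parental libraries and 0.566, 0.574 and 0.582 in trastuzumab libraries. The ratio of PRSS8 to SPINT1 went from 0.366 ± 0.014 to 0.512 ± 0.021, and that of PRSS8 to SPINT2 from 0.255 ± 0.0044 to 0.316 ± 0.0088, with no overlap in either. ST14 against SPINT1 went from 0.556 ± 0.0070 to 0.615 ± 0.0070. ST14 against SPINT2 was 0.387 ± 0.0027 in parental and 0.379 ± 0.011 in trastuzumab libraries, and here the groups overlapped. These ratios rest on the contrast that was in view when the genes were chosen and were not tested, and they describe RNA, not active enzyme. In the corrected fit the log2 fold change of PRSS8 (0.37) stayed above those of SPINT1 (-0.085) and SPINT2 (0.21). That of ST14 (0.073) lay above the value of SPINT1 but below that of SPINT2.

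**Figure D4:**
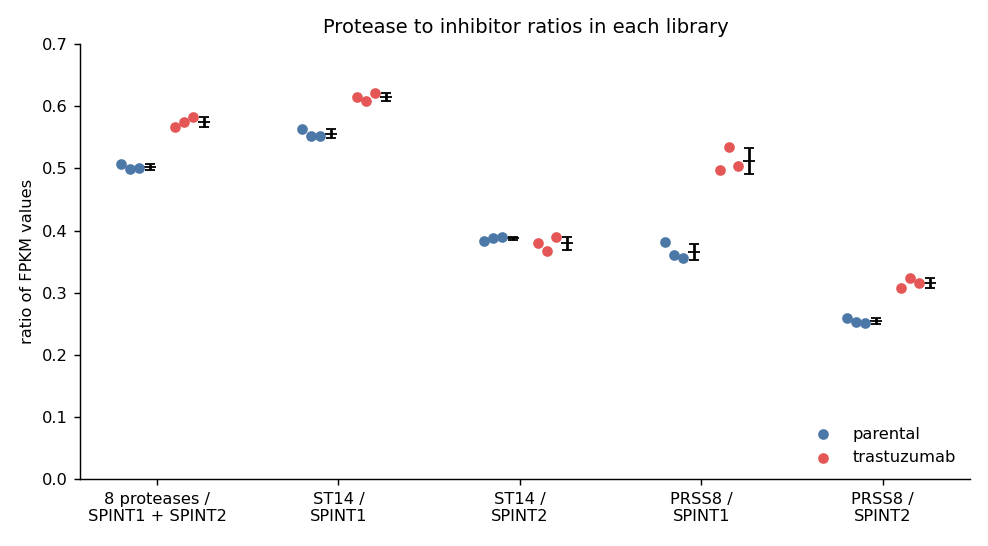
Ratio of protease to inhibitor FPKM (linear vertical axis from 0) in each library, for the summed proteases and inhibitors and for 4 pairs. Points are libraries and black bars the mean ± SD (n = 3). Without the correction, the trastuzumab libraries lie above the parental ones in every ratio except ST14 to SPINT2, where the groups overlap.

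RefSeq promoter windows (GRCh38.p14, 250 bases before and 50 after a start) were matched by symbol for SPINT1 (2 starts), PRSS27 and TMPRSS3. They are shown for SPINT1 and TMPRSS3 because these genes stand at the lower and upper end of the fold changes. The SPINT1 window includes the 5′ end of the span given above for the gene. The TMPRSS3 window lies inside the span of its gene (chr21:42371837-42396846), away from its 5′ end, so the windows are not at like places. The SPINT1 window is chr15:40843798-40844097 on the plus strand and the TMPRSS3 window chr21:42389100-42389399 on the minus strand, both printed 5′ to 3′ along the gene with motif matches in capitals.
SPINT1: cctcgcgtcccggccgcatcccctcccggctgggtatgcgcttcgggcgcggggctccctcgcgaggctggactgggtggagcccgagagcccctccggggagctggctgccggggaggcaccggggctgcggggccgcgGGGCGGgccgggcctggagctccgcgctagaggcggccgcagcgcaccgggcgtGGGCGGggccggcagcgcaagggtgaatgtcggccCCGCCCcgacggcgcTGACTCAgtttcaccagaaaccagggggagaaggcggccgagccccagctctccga
TMPRSS3: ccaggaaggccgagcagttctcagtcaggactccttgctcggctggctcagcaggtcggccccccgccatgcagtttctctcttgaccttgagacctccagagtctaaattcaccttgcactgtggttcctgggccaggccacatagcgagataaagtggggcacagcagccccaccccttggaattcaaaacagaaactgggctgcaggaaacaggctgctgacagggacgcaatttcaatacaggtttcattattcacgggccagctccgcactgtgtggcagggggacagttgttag
The SPINT1 window held 77.7% GC, more than 94.6% of all 35116 windows of the same length, and the TMPRSS3 window 56.3%, more than 44.0% of them. Both strands were searched for the GC box GGGCGG (in 15786 of all windows), the CCAAT box (34.6%), the TATA box TATAAA (11.5%) and the AP-1 site TGACTCA (4.95%). The grainyhead-like site AACCGGTT (0.134%), its core AACCGG (7.23%), which the full site contains, the E-box CACGTG (7.26%) and the ETS core CCGGAAG (10.3%) were searched too. The SPINT1 window held the GC box 3 times, at -110, -56 and -21 from the start, and the AP-1 site once, at -6. None of these letters occurred in the TMPRSS3 window, in that of PRSS27 or in that of the other SPINT1 start.

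Few other membrane-anchored serine proteases were measurable. Of 17 listed, 4 passed the filter on low counts, 1 was called higher and 0 lower, beside 23.9% higher and 25.4% lower among all genes tested. The one called was TMPRSS12, named after its values were seen, at 0.0722 and 0.426 CPM (log2 fold change 2.53 ± 0.88 SE, edgeR adjusted p = 0.0238), a call that was lost without parental replicate 3, trastuzumab replicate 1 or trastuzumab replicate 3. TMPRSS6 stood at 0.554 and 0.400 CPM, TMPRSS9 at 1.23 and 1.17 CPM and TMPRSS15 at 0.440 and 0.667 CPM, none past the test. Hepsin (HPN), corin (CORIN) and the TMPRSS11 genes were among the 13 below the filter.

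Among secreted trypsin-like proteases, 13 of 47 were tested, of which 3 rose, 0 fell and 10 did not pass (median log2 fold change 0.55). The share that rose was close to that of all genes tested, 23.9%, beside which, with 25.4% lower, the counts of the lists that follow are to be read too. PLAU, the urokinase gene whose precursor matriptase can activate, rose from 6.11, 4.30 and 5.42 CPM in the parental to 22.9, 22.1 and 23.1 CPM in the trastuzumab libraries. This was a log2 fold change of 2.10 ± 0.12 (SE, edgeR adjusted p = 1.07e-09), and 1.83 in the corrected fit. The complement protease C1S rose from 4.88 ± 0.310 to 8.33 ± 0.585 CPM (log2 0.77). KLK2, named after its values were seen, was called higher at 0.268 and 0.669 CPM, a call lost in the corrected fit (adjusted p = 0.0633, edgeR), with the replicate block and in 4 of the 6 fits that leave out a library (parental replicates 1 and 2, trastuzumab replicates 1 and 2).

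Of the other serine protease inhibitors, 18 of 47 were tested, of which 7 rose, 1 fell and 10 did not pass (median 0.48). SLPI, a secreted inhibitor of leukocyte elastase, rose from 38.3, 40.8 and 39.8 CPM to 109.0, 112.0 and 111.5 CPM (log2 fold change 1.48 ± 0.052 SE, edgeR adjusted p = 4.11e-12). The elastase-inhibiting serpin SERPINB1 rose from 9.13 ± 1.22 to 19.3 ± 1.18 CPM, the Kunitz-type TFPI2 from 2.10 ± 0.203 to 6.58 ± 1.41 CPM, AMBP, which encodes the Kunitz protein bikunin, from 0.900 ± 0.269 to 2.13 ± 0.352 CPM and the antichymotrypsin gene SERPINA3 from 0.172 ± 0.0980 to 1.74 ± 0.127 CPM. The gene that fell was TFPI, the Kunitz-type inhibitor of tissue factor coagulation, from 1.17 ± 0.195 to 0.358 ± 0.200 CPM (log2 -1.70 ± 0.43 SE, edgeR adjusted p = 0.00349). The paralogues TFPI and TFPI2 thus moved in opposite directions, in the corrected fit too (-1.19 and 1.95).

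Substrates and receptors of the proteases were mixed: of 17 tested of 21, 6 rose, 3 fell and 8 did not pass (median 0.15). CLDN7, a junction protein that partners EPCAM and is cleaved with it by matriptase, rose from 259.3 ± 0.602 to 400.8 ± 15.5 CPM (log2 0.63 ± 0.043 SE, edgeR adjusted p = 7.11e-09), while EPCAM fell from 184.7 ± 5.91 to 161.7 ± 4.42 CPM (log2 -0.19 ± 0.046 SE, adjusted p = 0.0021). F2RL1, the protease-activated receptor PAR2 on which matriptase acts, rose from 13.7, 14.3 and 13.5 CPM to 17.7, 19.9 and 20.6 CPM (log2 0.49 ± 0.092 SE, edgeR adjusted p = 2.97e-04).

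The sodium channel subunits that prostasin helps to activate differed among themselves. SCNN1G, the gamma subunit, rose from 1.72, 2.23 and 1.82 CPM to 4.54, 5.34 and 4.48 CPM (log2 1.32 ± 0.19 SE, edgeR adjusted p = 2.37e-05). SCNN1A, the far more abundant alpha subunit, stood at 289.5 ± 11.1 and 302.1 ± 8.01 CPM with overlapping groups and did not pass, though the corrected fit called it lower (-0.18). The beta subunit SCNN1B stood at 1.29 and 2.19 CPM and did not pass. CDCP1, a membrane glycoprotein cut by serine proteases, rose from 3.23 ± 0.759 to 5.80 ± 0.757 CPM, and the urokinase receptor PLAUR was called higher at 14.6 and 17.8 CPM with overlapping groups, a call lost in the corrected fit and in 4 of the 6 fits that leave out a library (parental replicates 1 and 3, trastuzumab replicates 1 and 2).

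MET, the receptor of hepatocyte growth factor, fell from 60.9, 59.4 and 59.5 CPM to 45.4, 43.2 and 39.3 CPM (log2 -0.49 ± 0.065 SE, edgeR adjusted p = 8.98e-06), and the growth factor gene PDGFC fell from 5.36 ± 0.240 to 3.75 ± 0.261 CPM. Neither call held in the corrected fit (-0.12 and -0.13). The related receptor MST1R stood at 23.7 and 26.2 CPM and did not pass.

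Among transcription regulators of the epithelial state, 15 of 18 were tested, and 4 rose, 4 fell and 7 missed the threshold (median -0.01). ELF3, an ETS factor of secretory epithelia, rose from 412.4, 422.1 and 457.3 CPM to 959.1, 1031 and 1003 CPM (log2 1.21 ± 0.047 SE, edgeR adjusted p = 1.54e-11), and KLF4 from 6.49 ± 0.383 to 11.3 ± 1.68 CPM. The other genes called higher, OVOL1 and OVOL2, named after their values were seen, did not pass in the corrected fit, where OVOL1 was at 0.074 and OVOL2 turned to -0.035. The grainyhead-like gene GRHL2 fell from 44.2, 45.9 and 49.5 CPM to 34.99, 30.9 and 34.98 CPM (log2 -0.47 ± 0.074 SE, edgeR adjusted p = 5.62e-05), GRHL3 from 7.07 ± 1.05 to 4.24 ± 0.417 CPM and the splicing regulator ESRP1 from 33.9 ± 1.01 to 22.6 ± 1.71 CPM. TP63, a basal epithelial factor, was called lower at 1.195 and 0.442 CPM, with overlapping groups and a call lost in the corrected fit (-1.04), with the replicate block and in 4 of the 6 fits that leave out a library (parental replicates 1 and 3, trastuzumab replicates 1 and 3). Other basal markers, given above, were mixed, with higher means of KRT5, KRT14 and ACTA2 in the trastuzumab group.

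All 8 tested genes of the 11 on a list of androgen-response genes were called, 5 higher and 3 lower (median 0.36). The metalloreductase gene STEAP4 rose from 32.5 ± 4.54 to 70.4 ± 4.08 CPM and SLC45A3, a prostate-enriched transporter, from 84.1 ± 5.59 to 111.0 ± 4.17 CPM, the latter not past the test in the corrected fit. KLK2, with the lost calls given above, and PIP, at 0.108 and 0.704 CPM, were called higher too and named after their values were seen. The call of PIP was lost without parental replicate 1 or trastuzumab replicate 2. The glucocorticoid- and androgen-responsive chaperone gene FKBP5 fell without the correction from 37.2 ± 3.27 to 27.5 ± 2.50 CPM, the transporter ABCC4 from 21.2 ± 4.68 to 11.5 ± 2.21 CPM and the acyl-CoA synthetase ACSL3 from 132.9 ± 8.55 to 92.9 ± 7.62 CPM. FKBP5 turned to 0.050 and ACSL3 went to -0.009 in the corrected fit, neither past the test.

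In the corrected fit, where 19.7% of all genes were higher and 19.3% lower, the lists counted 1 other membrane-anchored protease higher and 0 lower, 3 secreted proteases higher and 1 lower, 8 other inhibitors higher and 2 lower, 4 substrates higher and 3 lower, 4 epithelial regulators higher and 5 lower, and 3 androgen-responsive genes higher and 1 lower. These were not the same genes as without the correction: among secreted proteases KLK2 lost its call and PRSS23 gained one (0.99), among regulators OVOL1 and OVOL2 lost theirs and GRHL1 (from -0.025 to 0.38) and EHF (from -0.085 to 0.19) gained one, and among inhibitors SERPINB8 gained one, the genes gained being named after their values were seen. The medians of the lists there were 0.28, 0.19, 0.27, 0.018, -0.04 and 0.30, against 0.23 for the 10 protease and inhibitor genes and -0.01 for all genes.

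**Figure D5:**
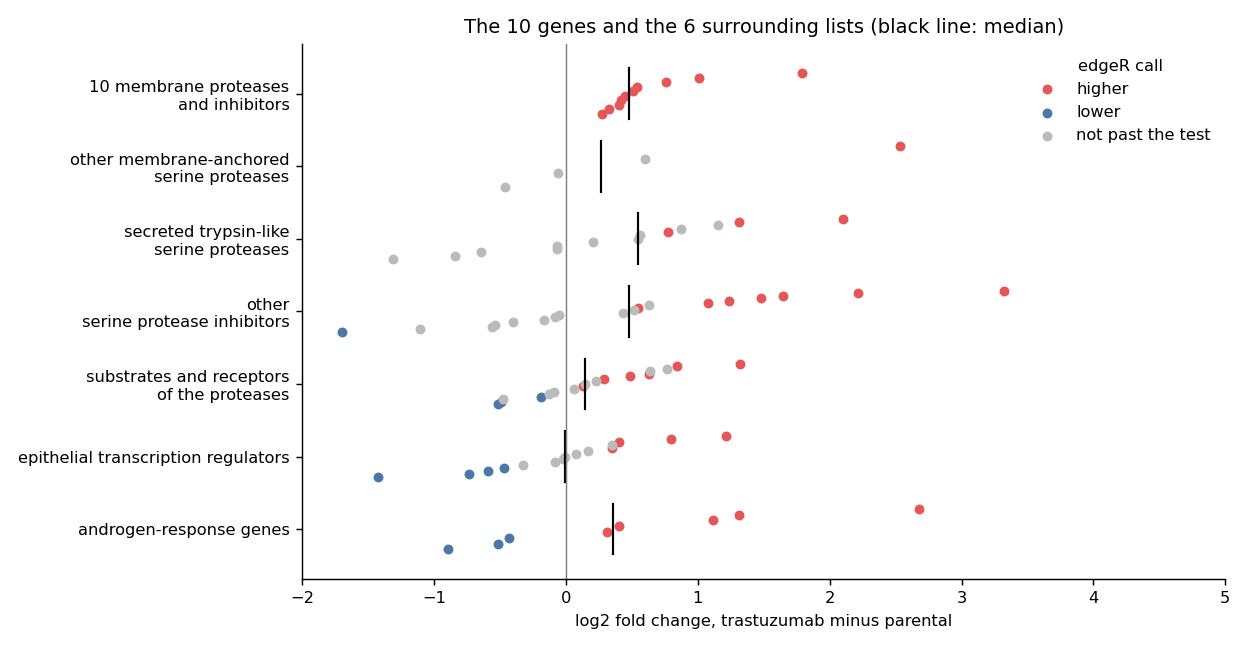
Log2 fold change of trastuzumab minus parental (horizontal axis) for each tested gene of the 10 and of the 6 surrounding lists (rows), coloured by the edgeR call, with the median of each row as a black line. Without the correction the 10 genes lie between 0.27 and 1.79, while each of the 6 lists holds points on both sides of 0.

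Protein-coding genes within 100 kb of one of the 10 genes were also examined, a window chosen after the data were seen. Of 46 tested, 28 were called higher, 2 lower and 16 did not pass, beside 23.9% higher and 25.4% lower among all genes. In the corrected fit 10 were called higher and 6 lower, beside 19.7% and 19.3% among all genes, so that the share called higher was near that of all genes. TMPRSS2 had 2 tested neighbours, MX1 and MX2, TMPRSS4 had SCN4B, and ST14 had APLP2 and ZBTB44. None of these 5 was called higher. PRSS8 lay among 9 tested neighbours of which 7 were called higher, and SPINT1 among 10 with 7 higher. In the corrected fit 3 neighbours of PRSS8 were called higher and 1 lower, and 2 of SPINT1 higher and 1 lower.

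Likeness of pattern was measured as the Euclidean distance of centred log2(CPM + 0.5) over the 6 libraries, among 9682 protein-coding genes of at least 1 FPKM in all libraries of a group. Nearest to TMPRSS3 were PLA2G4F (distance 0.33, 6.93 and 18.6 CPM), HES2 (0.336, 10.8 and 23.1 CPM) and MYEOV (0.343, 13.4 and 33.9 CPM). The added 0.5 narrows the difference of TMPRSS3, at 0.652 and 2.26 CPM, more than those of these genes, so their fold changes were not alike. Nearest to ST14 were GGT1 (0.0169), PPL (0.029) and MTCH1 (0.035), each with about the same ratio between the groups, for example 180 and 240 CPM for PPL.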

How the data were processed

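RNA was sequenced from 3 parental and 3 trastuzumab SKBR3 libraries made with a directional kit, per the labels' protocols. The aligner STAR 2.4.2a and the hg38 build are named in the submitters' processing notes, and the counting program was not given in the sources used here. The authors deposited raw counts for 60612 genes and FPKM values, scaled by them for gene length and library size, for 33686. Symbols came from a gene name table, and positions, exonic length and GC content (longest transcript) from GENCODE 29.

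Counts were tested with edgeR 4.0.16 (R 4.3.3): TMM scaling, filterByExpr, robust quasi-likelihood F test, no covariate, Benjamini-Hochberg adjustment, called below 0.05. The SE is the log2 fold change divided by the square root of F. The corrected fit removes, as offsets, a spline (5 degrees of freedom each) on GC content and length from each library. DESeq2 1.42.0 and limma 3.58.1 on log2(FPKM + 1) served as alternatives. The fits were tested on simulated data that held no trend on GC content or length, so the removal of such a trend was not tested. Libraries of a group differed by more than sampling noise (chi-square per degree of freedom 18.6 to 30.14 over 12691 genes). The 10 genes and the lists were chosen with earlier results of these data known. Named are all 10 genes, every substrate of at least 10 CPM and, per list, up to 6 called genes that reached 1 CPM, by size of change. Of the genes so named, 2 are counted in their lists and not reported here.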

Additional observations from a re-analysis of the deposited data

How the results depend on the processing

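The 10 genes kept their direction under every alternative without correction for GC content and length (RLE factors, library totals alone, other filters, DESeq2, FPKM values, the replicate block and leaving out each library), and 10 were called higher in each except that TMPRSS4 did not pass on FPKM values or without trastuzumab replicate 3, and TMPRSS3 was below the filter of the filtered FPKM fits. Leaving out 1 library gave 9 to 10 genes called higher. With the correction 7 were called higher and 1 lower, and with the correction and the replicate block together 6 were called higher and 0 lower. With the block added, the calls of PRSS27 (higher) and SPINT1 (lower) were lost. Of all 17649 genes fitted, 3331 were called higher and 3244 lower with the correction and the block. SPINT1 (-0.085 with or without the block), OVOL2 (-0.035, and -0.034 with the block) and FKBP5 (0.050, and 0.054 with the block) reversed under the correction. The cause was not tested.

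Same-numbered libraries did not visibly deviate together (r = 0.012, -0.056 and 0.019 over 11866 genes, beside -0.124 to 0.13 for other pairs across the groups). Whether they were handled together cannot be told from this, and the labels do not say. With the replicate block 4219 genes were called higher and 4434 lower, against 4274 and 4534 without it. Under the FPKM fits with 1 FPKM in 3 libraries, 15 genes of the 6 lists were called higher (25 in the counts) at either pseudocount, with fewer genes tested. By list, these fits called 0 other membrane-anchored proteases, 4 other inhibitors, 3 substrates and 2 androgen-responsive genes higher, and 3 other inhibitors lower. The unfiltered FPKM fit called 3 substrates and 2 androgen-responsive genes higher and 2 other inhibitors lower. At 1 CPM in 3 libraries, 0 other membrane-anchored proteases and 3 androgen-responsive genes were called higher, and library totals alone called 4 other inhibitors lower. The correction called 3 androgen-responsive genes higher and 1 lower, and 2 other inhibitors lower, with and without the block. It called 1 secreted protease lower, and 2 with the block. Leaving out a library gave 0 to 1 other membrane-anchored proteases and 3 to 5 androgen-responsive genes higher, and 1 to 2 other inhibitors lower. Without the correction, the log2 difference in the ratio of all proteases to inhibitors was 0.193 in FPKM and 0.16 in CPM. Depth limits TMPRSS3 (29 to 210 counts) and the list genes under 1 CPM in a group, such as TMPRSS12, PIP, SERPINA3 and KLK2.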
